A study of Mus musculus with 2 samples.

Results

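The cell cycle genes described here are 44 genes of DNA replication, S phase and mitosis, taken by gene symbol from tables of gene expression in skin wounds of WT and PU.1-/- mice. The symbols were chosen for their known function, with earlier results of these data known, and all 44 were found among the 24346 gene symbols listed. In a dividing cell, cyclins bind and activate cyclin-dependent kinases (CDKs) in turn, E2F transcription factors switch on the genes of DNA synthesis, and a later wave of genes builds the spindle and separates the chromosomes. Many of these mRNAs are made mainly while a cell is cycling, and in a tissue their level is commonly used as a readout of how many cells divide. In a healing wound, keratinocytes, fibroblasts, endothelial cells and leukocytes can all divide.

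Spi1 encodes PU.1, a transcription factor needed for the development of several kinds of blood cell, and PU.1-/- pups were used as animals whose wounds lack an inflammatory response. Full-thickness incisions were made in the back skin of littermates aged 1 day, WT or PU.1-/-, of strain C57BL/6J, without further treatment named in the labels, and the wounds were taken 24 h later; the deposited design text speaks of excision instead. There was 1 WT library and 1 PU.1-/- library of mRNA, and neither the number nor the sex of the pups behind each is given in the sources used here. Both wounds were injured, and no unwounded skin was analysed here. With 1 library per genotype no test was possible, no p-value is given, and the values below compare these libraries and carry no measure of the spread between animals.

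Levels are given in FPKM, with the WT value before the PU.1-/- value in each pair. FPKM counts the fragments of a gene per length and per depth, so that levels can be compared between genes. Ratios are PU.1-/- over WT on the log2 scale, after values below 0.1 FPKM were raised to 0.1, and a negative ratio means a lower level in the PU.1-/- wound. The steps of low values put the normalized depth at 1.38e+07 fragments for the WT library and 1.59e+07 for the PU.1-/- library. These are estimates from the deposited values and not numbers of sequenced reads. The 95% intervals beside ratios are exact binomial (Clopper-Pearson) intervals on estimated reads, and they cover counting error only. The estimated reads of the 44 genes ran from 62.1 to 4576 in the WT library, with a median of 439, and from 50.1 to 6756 in the PU.1-/- library, with a median of 373. Spi1 itself stood at 35.4 and 1.45 FPKM, a log2 ratio of −4.60 (−5.08 to −4.16), in the direction its label gives. Uty, Kdm5d, Eif2s3y and Ddx3y, all on the Y chromosome, were listed at 0 in PU.1-/- only, and Xist was listed at 0 in WT with 9.48 FPKM in PU.1-/-, so that the sex of the pups and the genotype cannot be told apart. A lower level in whole tissue can come from fewer dividing cells, from less RNA in each, or from a larger share of RNA from other cells. These cannot be told apart here.

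Promoters were searched for the letters of known cell cycle elements, and 6 with matches are printed below. Genes of the G1/S transition often carry E2F sites, while genes of G2 and mitosis often carry a cell cycle homology region (CHR), the element bound by the DREAM and MuvB complexes, near CCAAT boxes bound by NF-Y. Sequences are those of RefSeq on GRCm38.p6 (the assembly of mm10), in windows of 300 bases, from 250 before to 50 after the annotated start. Windows of 35 of the 44 genes were used, and none was used here for Ccnd1, Ccne2, Mcm4, Ccna2, Cdc25c, Foxm1, Aurkb, Kif20a and Tpx2. The letters searched on both strands were TTTGGCGC, TTTCCCGC, TTTCGCGC and GGCGGGAA for E2F, TTTGAA and TTTAAA for CHR, and CCAAT for the CCAAT box; TTTAAA reads the same on both strands, and GGCGGGAA overlaps TTTCCCGC as read on the other strand. Each line gives only bases before the start used, 5′ to 3′ on the strand of the gene, with matches in capitals (on the other strand a CCAAT box reads ATTGG and a CHR reads TTCAAA). For Mcm5 the start used lies inside the gene as annotated, which begins at position 75109468, so its last printed bases are within the gene.

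Cdc20, chr4:118437344-118437443, minus strand: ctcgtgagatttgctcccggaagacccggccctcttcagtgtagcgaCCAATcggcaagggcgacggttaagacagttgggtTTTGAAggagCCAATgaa
Ube2c, chr2:164769809-164769928, plus strand: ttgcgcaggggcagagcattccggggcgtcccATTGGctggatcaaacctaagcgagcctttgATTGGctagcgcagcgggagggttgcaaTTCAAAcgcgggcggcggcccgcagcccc
Kif11, chr19:37376282-37376381, plus strand: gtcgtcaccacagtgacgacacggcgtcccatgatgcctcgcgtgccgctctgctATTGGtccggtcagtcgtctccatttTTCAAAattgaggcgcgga
Cdk1, chr10:69352913-69353052, minus strand: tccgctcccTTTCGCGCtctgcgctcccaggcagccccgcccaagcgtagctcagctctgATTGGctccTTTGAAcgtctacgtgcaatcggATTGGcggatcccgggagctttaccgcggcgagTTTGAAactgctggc
Mcm6, chr1:128359706-128359825, minus strand: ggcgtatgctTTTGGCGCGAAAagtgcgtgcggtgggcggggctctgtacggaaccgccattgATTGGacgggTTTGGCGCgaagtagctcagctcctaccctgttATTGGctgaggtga
Mcm5, chr8:75109349-75109508, plus strand: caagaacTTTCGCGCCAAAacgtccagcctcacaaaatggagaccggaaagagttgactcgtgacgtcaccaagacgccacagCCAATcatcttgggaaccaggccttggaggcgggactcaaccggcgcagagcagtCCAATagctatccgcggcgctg

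In Cdc20 the CHR letters began 18 bases before the start, in Ube2c 29, in Kif11 19 and in Cdk1 both 71 and 15. The E2F letters of Mcm6 began 110 and 47 bases before its start, with a further match overlapping the first, and those of Mcm5 form an overlapping pair that began 153 and 149 bases before. Cdk1 carried both kinds, an E2F match 131 bases before the start and CHR matches nearer to it. Mcm5 carried both kinds too, with its CHR letters, TTTAAA, outside the bases printed.

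As a whole the 44 genes were lower in the PU.1-/- wound by a modest amount. A total of 41 genes had a ratio below 1 and 3 had a ratio above 1, where 50.7% of the 13237 expressed genes (1 FPKM or more in 1 or both libraries) had a ratio below 1 and 49.3% above 1. The median gene stood at 76.9% of its WT level (log2 ratio −0.38), while the median over expressed genes was 99.7%. None of the 44 was at least 2-fold lower or higher, against backgrounds of 4.45% and 1.71% of expressed genes. At 1.5-fold, 9 of the 44 were lower and none higher, where the background was 8.17% lower and 5.45% higher. At 1.2-fold, 34 were lower and 1 was higher, where the background was 19.6% lower and 17.7% higher. Over all 24346 genes listed, many of them at 0 in both libraries, 34.1% had a ratio below 1 and 32.8% above 1. On that base 4.34% were lower and 2.32% higher at 2-fold, 7.67% and 5.79% at 1.5-fold, and 15.3% and 14.1% at 1.2-fold. The log2 ratios of the 44 genes ran from −0.94 to 0.36. The middle 50% of expressed genes had log2 ratios from −0.20 to 0.18, and 37 of the 44 were below that range. Counting intervals lay wholly below 0 for 32 genes and wholly above 0 for 1, and held 0 for 11. Of 13084 expressed genes with a transcript length, 24.2% had an interval wholly below 0 and 24.2% wholly above.

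**Figure D1:**
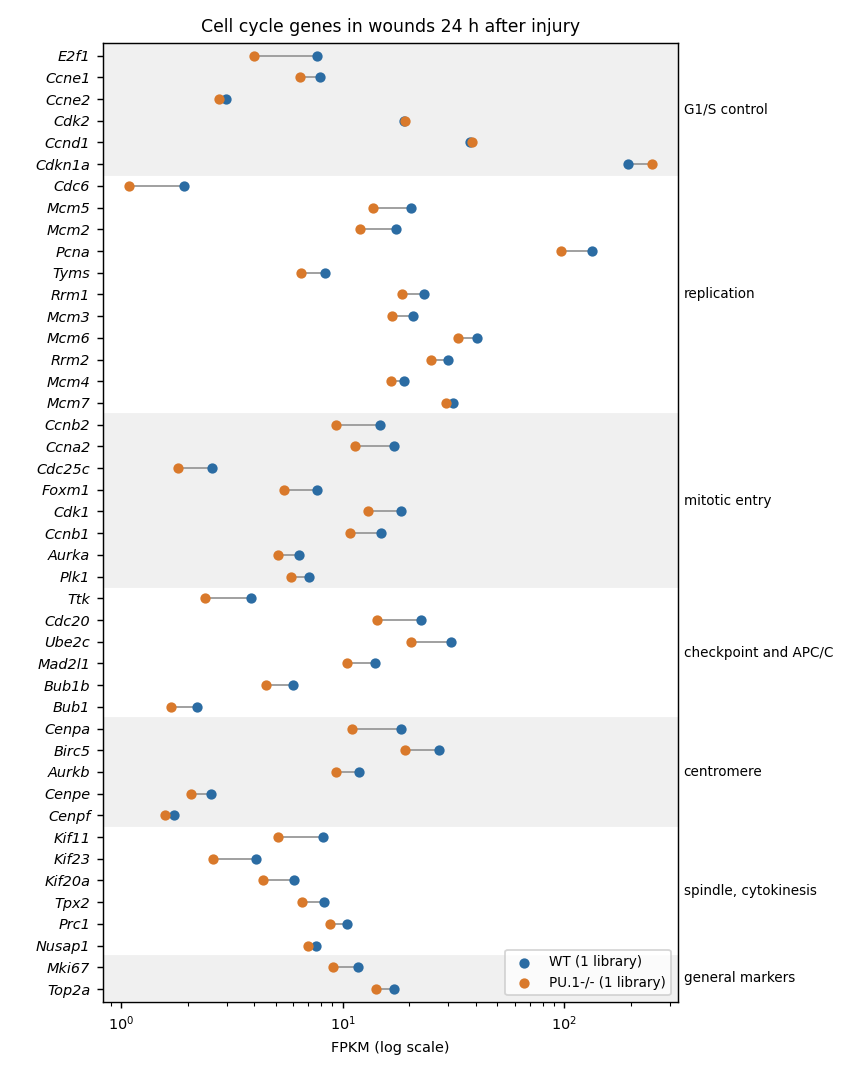
FPKM (log axis) of each of the 44 genes in the WT library (blue) and the PU.1-/- library (orange), 1 library per genotype with no error bars, ordered by role and by ratio. The orange point is to the left of the blue point for 41 genes, and to its right for Cdk2, Ccnd1 and Cdkn1a.

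The 6 genes that control the passage from G1 into S phase did not share a direction, with 3 lower and 3 higher. E2f1, a transcription factor of the genes of S phase (chromosome 2, 154559400 to 154569892), had the lowest ratio of all 44, with 7.70 and 4.0 FPKM. Its log2 ratio of −0.94 (−1.23 to −0.66) was at percentile 4.73 of expressed genes. Cyclin E, the partner of CDK2 at the start of S phase, is encoded by Ccne1 and Ccne2. Ccne1 was listed at 7.89 and 6.43 FPKM and Ccne2 at 2.99 and 2.78 FPKM, and both counting intervals held 0. Cdk2 itself was listed at 19.0 and 19.2 FPKM, a log2 ratio of 0.01 (−0.15 to 0.18).
Ccnd1 encodes cyclin D1, which couples growth factor signals to the cell cycle and is made in G1 and in cells that have just left rest. It was listed at 37.6 and 38.5 FPKM, a log2 ratio of 0.03 (−0.06 to 0.12). The interval of Ccnd1 lay wholly above the median of the 44 genes, as did that of Cdk2. Cdkn1a encodes p21, an inhibitor of CDKs induced by p53 and by differentiation (chromosome 17, 29090979 to 29100722). It had the highest level of the 44 in both libraries and was the only gene with an interval above 0, at 194 and 249 FPKM, a log2 ratio of 0.36 (0.31 to 0.42). The level of Cdkn1a was 10.6 times that of Cdk1 in the WT wound and 19.1 times in PU.1-/-. The median of these 6 genes was −0.05, but the sign turned under other settings, to 0.00042 with equal FPKM sums, to 0.024 with the 100 highest genes left out of those sums, and to 0.014 over genes of at least 5 FPKM.

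All 11 replication genes were lower in the PU.1-/- wound, with a median log2 ratio of −0.33. CDC6 loads the MCM helicase onto origins of replication in G1, and Cdc6 (chromosome 11, 98907709 to 98923942) had the lowest ratio of the group, with 1.93 and 1.09 FPKM. Its log2 ratio was −0.83 (−1.26 to −0.40) on an estimated 118 and 76.1 reads, but −0.49 with a pseudocount of 1 FPKM, where Mcm5 (−0.54) and Mcm2 (−0.51) were lower. MCM2 to MCM7 form the ring of the replicative helicase in equal numbers. Mcm5 was listed at 20.4 and 13.7 FPKM and Mcm2 at 17.5 and 12 FPKM. Mcm3 was listed at 20.9 and 16.7 FPKM, Mcm6 at 40.5 and 33.0 FPKM, and Mcm4 at 19.0 and 16.5 FPKM. Mcm7 was nearest to level, at 31.4 and 29.2 FPKM.
The mRNAs of the ring thus differed by unequal amounts. The log2 ratio was −0.58 for Mcm5 (−0.72 to −0.43) and −0.55 for Mcm2 (−0.70 to −0.39), but −0.10 for Mcm7 (−0.22 to 0.01), intervals that do not overlap. The highest of the 6 was 2.32 times the lowest in the WT library and 2.76 times in the PU.1-/- library. Pcna, the sliding clamp of DNA polymerases and also a gene of DNA repair, was the most abundant of the group, at 134 and 97.2 FPKM (log2 ratio −0.46, −0.55 to −0.37). The enzymes that supply deoxynucleotides had ratios nearer to 1 than Pcna. Rrm1, the large subunit of ribonucleotide reductase, was listed at 23.4 and 18.5 FPKM, and Rrm2, its small subunit made in S phase, at 30 and 25 FPKM. Tyms, thymidylate synthase, was listed at 8.30 and 6.51 FPKM, a log2 ratio of −0.35 (−0.58 to −0.12).

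**Figure D2:**
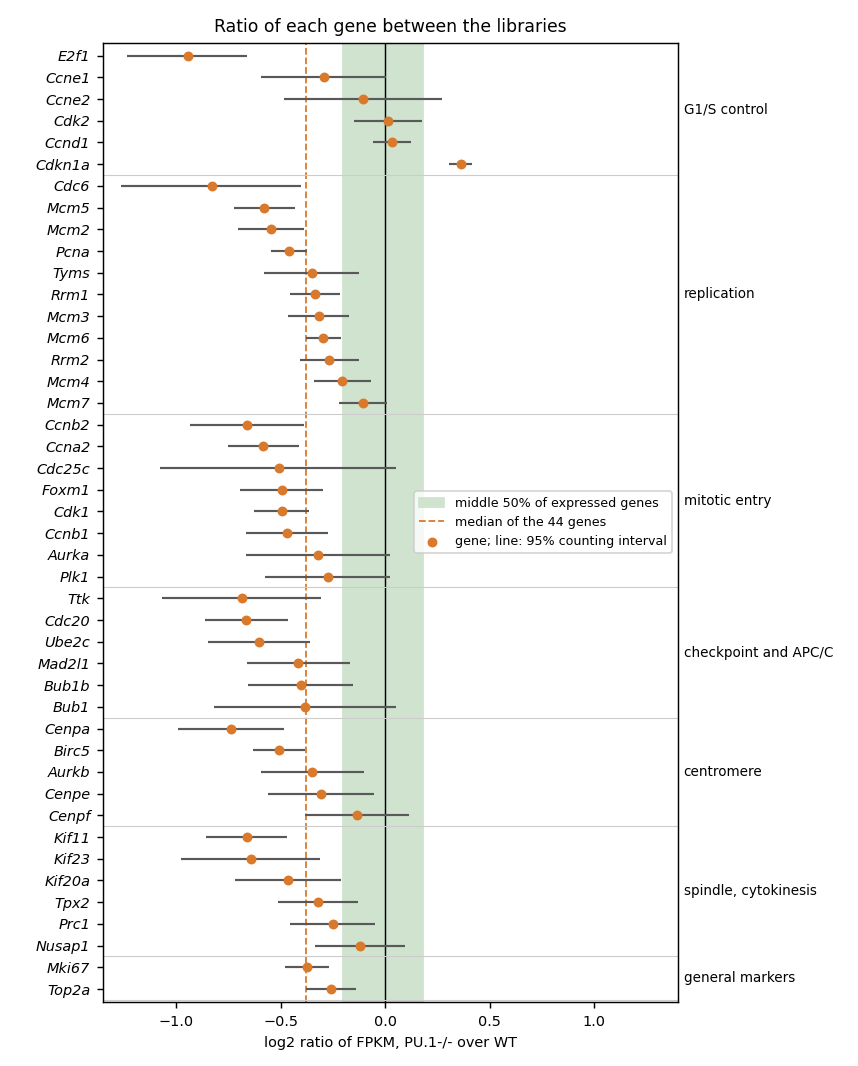
Log2 ratio of FPKM, PU.1-/- over WT, for each of the 44 genes by role (points), with exact binomial 95% counting intervals (lines); the green band holds the middle 50% of expressed genes and the dashed line marks the median of the 44, −0.38. E2f1 is farthest to the left at −0.94, Cdkn1a is farthest to the right at 0.36, and 32 of the 44 intervals lie wholly below 0, where 24.2% of expressed genes with a length had such an interval.

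The 8 genes of mitotic entry were all lower, with a median log2 ratio of −0.49 and a range from −0.66 to −0.28. Cyclin A2 and the B cyclins bind CDK1 to drive cells through G2 into mitosis. Ccnb2 was listed at 14.7 and 9.30 FPKM, a log2 ratio of −0.66 (−0.93 to −0.39), and Ccnb1 at 14.9 and 10.8 FPKM. Ccna2 was listed at 17.1 and 11.4 FPKM and Cdk1 at 18.3 and 13 FPKM. These 4 partners stood between 63.3% and 72.3% of their WT level.
Cdc25c, the phosphatase that removes the inhibitory phosphates of CDK1, was the thinnest of the 44 in reads, at 2.58 and 1.81 FPKM, and its interval of −1.08 to 0.05 held 0. Foxm1, a transcription factor of G2 genes, was listed at 7.67 and 5.44 FPKM. The kinases Aurka and Plk1, which mature the centrosomes, had smaller differences, Aurka with 6.37 and 5.09 FPKM and Plk1 with 7.09 and 5.85 FPKM, and both intervals held 0.

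The 6 genes of the spindle checkpoint and the anaphase-promoting complex (APC/C) were all lower, with a median of −0.51. Cdc20, the activator that the checkpoint holds back (chromosome 4, 118432901 to 118437343), was listed at 22.7 and 14.3 FPKM, a log2 ratio of −0.66 (−0.86 to −0.47). Ube2c, the ubiquitin-conjugating enzyme of the APC/C, was listed at 30.9 and 20.4 FPKM. Ttk, the MPS1 kinase that starts the checkpoint, was listed at 3.85 and 2.40 FPKM. Mad2l1, Bub1b and Bub1, which carry the signal, were nearer to the median of the 44, with log2 ratios of −0.42, −0.40 and −0.38. Mad2l1 had 14 and 10.5 FPKM and Bub1b had 5.99 and 4.53 FPKM. Bub1 had 2.2 and 1.69 FPKM, with an interval that held 0.

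The 5 centromere genes were all lower, with log2 ratios from −0.74 to −0.14 and a median of −0.35. Cenpa, the histone H3 variant that marks centromeres (chromosome 5, 30666877 to 30674837), was listed at 18.4 and 11.0 FPKM. Its log2 ratio was −0.74 (−0.99 to −0.48), with an interval of −1.46 to −0.03 if its reads came from the shorter of its transcripts. The chromosomal passenger genes Birc5, which encodes survivin, and Aurkb had 27.3 and 19.2 FPKM (Birc5) and 11.8 and 9.30 FPKM (Aurkb). Cenpe and Cenpf, the genes of the large kinetochore proteins CENP-E and CENP-F, had the ratios nearest to 1 of the 5. Cenpe was listed at 2.55 and 2.06 FPKM and Cenpf at 1.73 and 1.57 FPKM, and the interval of Cenpf held 0.

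Among the 6 genes of the spindle and of cytokinesis the median was −0.39. Kif11, the motor that pushes spindle poles apart, was listed at 8.13 and 5.14 FPKM, a log2 ratio of −0.66 (−0.86 to −0.47). Kif23, a motor of the central spindle, was listed at 4.08 and 2.61 FPKM, and Kif20a, also of cytokinesis, at 6.03 and 4.37 FPKM. Tpx2, Prc1 and Nusap1, which bind or bundle microtubules, had smaller differences, with log2 ratios of −0.32, −0.25 and −0.12. Tpx2 had 8.21 and 6.56 FPKM, Prc1 had 10.4 and 8.76 FPKM, and Nusap1 had 7.62 and 7.01 FPKM, with an interval that held 0. The general markers of cycling cells were between these values. Mki67, the gene of the Ki-67 antigen, was listed at 11.7 and 9.05 FPKM, a log2 ratio of −0.38 (−0.48 to −0.27), and Top2a, the topoisomerase of replicated chromosomes, at 17.0 and 14.2 FPKM.
Over these 5 mitosis groups all 27 genes were lower, with a median of −0.46, or 72.5% of the WT level. Their summed level was 303 and 217 FPKM. The median of the mitosis genes was below that of the replication genes, a difference between lists that was not tested.

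Of the 44 genes, 10 had counting intervals wholly below the median of the group: E2f1, Cdc6, Mcm2, Mcm5, Ccna2, Ccnb2, Cdc20, Cenpa, Birc5 and Kif11. On the other side, Ccnd1, Cdk2, Cdkn1a, Mcm4, Mcm7, Nusap1 and Top2a had intervals wholly above it. For these genes the distance from the median was larger than the counting error as estimated. Intervals off the middle were also common among expressed genes, whose median log2 ratio was −0.004. Of those with a transcript length, 24.2% had an interval wholly below 0 and 24.2% wholly above. For 14 genes GENCODE links more than 1 transcript to RefSeq, and with the shortest of these Cdc6, Cenpa and Birc5 left the first set, which makes 7.

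Genes of the cell cycle outside the 44 were read from lists by known function, also chosen with earlier results of these data known. Of expressed genes, 50.7% had a ratio below 1 and 49.3% above 1. Of 45 other replication genes, 40 were lower, with a median log2 ratio of −0.32. The lowest ratios were those of Orc1, a subunit of the origin recognition complex (2.21 and 1.21 FPKM, −0.87), and Gmnn, the replication licensing inhibitor geminin (25.5 and 15.4 FPKM, −0.72). The highest were those of Gins3, of the GINS helicase complex (0.41), Dnmt1, the maintenance DNA methyltransferase (0.18), and Rpa2, of the single-strand binding protein RPA (0.16). Of 65 other mitosis genes, 60 were lower, with a median of −0.35. Cdca2 (2.35 and 1.26 FPKM), Cenpi (3.18 and 1.84 FPKM) and Anln, the gene of anillin (6.49 and 3.86 FPKM), had the lowest ratios. Sgol2a, Fam64a and Cenph had the highest, from 0.11 to 0.41, and the intervals of Fam64a and Cenph held 0. At 1.5-fold, 4 of the 45 replication genes were lower, near the background of 8.17% of expressed genes, and 12 of the 65 mitosis genes were lower. None of either list was higher at 1.5-fold, where the background was 5.45%. None reached 2-fold, against 4.45% of expressed genes lower and 1.71% higher.
Other regulators of the cycle were not lower as a list, where 50.7% of expressed genes were lower and 49.3% higher. In a set of 26 other cyclins, CDKs, E2F factors, pocket proteins and their partners, 9 genes were lower and 17 higher, with a median of 0.08. Mybl2, a transcription factor made in late G1 and S phase, was the lowest, at 5.50 and 3.30 FPKM (log2 ratio −0.74, −1.02 to −0.46). E2f5 (−0.52) and Cdk4, the partner of the D cyclins, followed, and Cdk4 was listed at 186 and 156 FPKM (−0.25). E2f7, an E2F repressor (0.41), Lin9, a subunit of MuvB (0.40), and Ccnd3, the gene of cyclin D3 (0.36), were the highest.

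**Figure D3:**
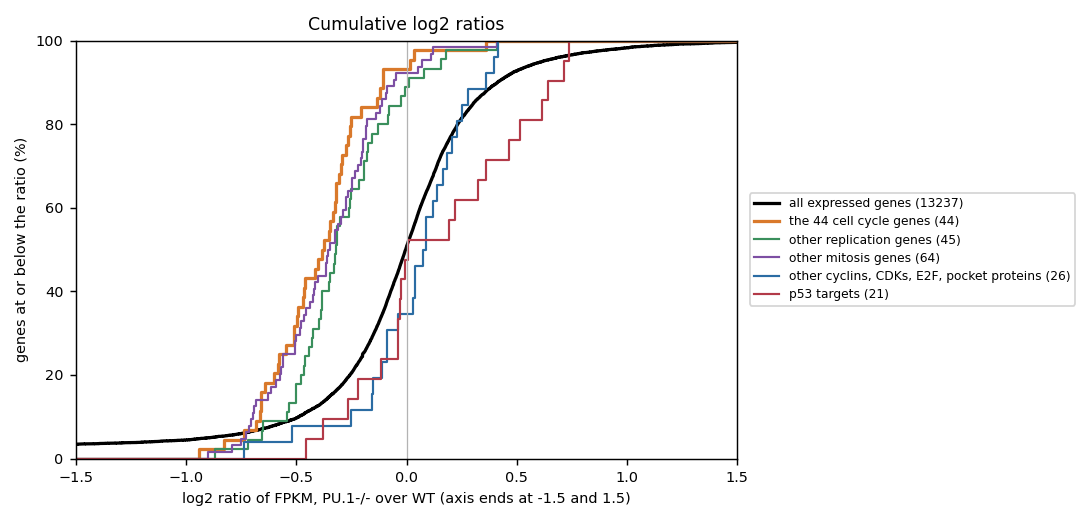
Cumulative share of genes (%) at or below each log2 ratio, PU.1-/- over WT, for the 44 genes, the lists of related genes and the 13237 expressed genes; numbers in the key count the expressed genes of each list. The curves of the 44 genes and of the other replication and mitosis genes run to the left of all expressed genes, with medians of −0.38, −0.32 and −0.35, and the curve of the other cyclins, CDKs and E2F genes does not.

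Of 6 expressed CDK inhibitors, p21 included, 1 was lower and 5 were higher, where 49.3% of expressed genes were higher. Their median was 0.090, and 3 of the intervals held 0. With Cdkn2a, which was not expressed at 1 FPKM, the list has 7 genes and a median of 0.10. Cdkn1b, the gene of p27, was listed at 18.7 and 20 FPKM, Cdkn1c, the gene of p57, at 66.1 and 69.8 FPKM, and Cdkn2b at 6.77 and 6.96 FPKM, each with an interval that held 0. Cdkn2d, the gene of p19-INK4d, had 26.8 and 34.2 FPKM (log2 ratio 0.35, 0.18 to 0.53). Cdkn2c, the gene of p18-INK4c, had 11.8 and 8.51 FPKM (−0.47, −0.69 to −0.25). Cdkn2a, at 0.101 and 0.175 FPKM, rested on an estimated 0.965 and 1.93 reads, and no ratio is given.
Because Cdkn1a is a target of p53, other p53 targets were read beside it. Of 22 such genes, Cdkn1a included, 12 were higher and 10 lower, near the 49.3% of expressed genes that were higher. Their median was 0.10, and 0.0090 over the expressed ones. At 1.2-fold, 9 were higher and 3 lower, where the background was 17.7% of expressed genes higher and 19.6% lower. The 9 include 1 gene that was below 1 FPKM in both libraries. Eda2r was listed at 4.19 and 6.99 FPKM, Btg2, an antiproliferative gene, at 24.6 and 40.5 FPKM, and Trp53inp1 at 10.2 and 15.8 FPKM, with log2 ratios of 0.74, 0.72 and 0.64. Bax, a gene of apoptosis, was listed at 78.8 and 60.6 FPKM (−0.38) and Sesn2 at 11.7 and 9.69 FPKM (−0.27). Ddit4l was listed at 1.23 and 0.899 FPKM (−0.46), with an interval that held 0.

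Promoter letters were spread unevenly over the roles. Among the 14 G1/S and replication genes with a promoter, 7 held E2F letters (50%), namely Cdk2, Cdc6, Mcm3, Mcm5, Mcm6, Mcm7 and Rrm1, where 7.26% of 10035 expressed genes with a promoter and 4% of all 27025 genes with one held them. Among the 21 mitosis genes 1 did, Cdk1. For CHR the order turned round, with 18 of the 21 mitosis genes (85.7%) and 4 of the 14 others (28.6%), where the background was 22.8% of expressed genes and 30.6% of all. CCAAT letters were in 27 of the 35 genes (77.1%), against 42.3% of expressed genes and 41.1% of all. CHR and CCAAT letters together were found in 17 of the 21 mitosis genes (81.0%), where 9.31% of expressed genes and 12.2% of all held both. The 22 genes of the 44 with CHR letters had a median log2 ratio of −0.48 and the 13 without had −0.33, while the 8 with E2F letters had −0.33 and the 27 without had −0.40, differences that were not tested. Of the 22 genes with CHR letters, 18 were mitosis genes. Over all expressed genes with a promoter the median hardly moved with these letters. It was −0.02 with CHR letters, −0.03 with CHR and CCAAT letters together and −0.01 with E2F letters. A match of letters does not show that a factor binds, and lack of a match does not show that a site is missing. The genes were listed by role, so these shares describe the lists.

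**Figure D4:**
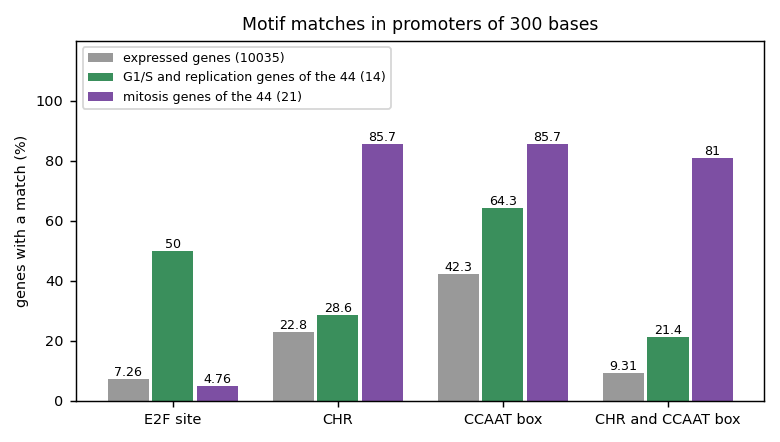
Share of genes (%) whose promoter of 300 bases holds the letters of an E2F site, a CHR, a CCAAT box, or both a CHR and a CCAAT box, for expressed genes (grey), G1/S and replication genes (green) and mitosis genes (purple); numbers in the key count genes with a promoter. E2F letters are most frequent in the green group (50%), and CHR letters in the purple group (85.7%).

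Cell type markers also differed between the libraries, in both directions, and their part in the ratios of the cell cycle genes was not tested. All 10 macrophage markers were lower, with summed levels of 730 and 6.46 FPKM, and Adgre1, C1qa, C1qb, C1qc and Tyrobp were listed at 0 in PU.1-/-. All 7 mast cell markers were lower (692 and 7.30 FPKM), with Mcpt4, Fcer1a and Ms4a2 at 0. The 9 neutrophil markers found were lower too (12529 and 3676 FPKM), with Retnlg, Csf3r and Ngp at 0; S100a8 and S100a9, which make up most of that sum, are also made by keratinocytes. Of 5 T cell markers, 4 were lower and Cd8a was at 0 in both, and the list summed to 2.88 FPKM in WT and 0 in PU.1-/-. All 8 fibroblast markers (2639 and 3093 FPKM) and all 7 basal keratinocyte markers (6173 and 6856 FPKM) were higher, as were 4 of 6 differentiated keratinocyte markers (8418 and 9096 FPKM) and 5 of 6 endothelial markers (171 and 190 FPKM). Of 6 erythroid markers 5 were higher (1286 and 1546 FPKM). Markers of the hair follicle matrix, a highly proliferative tissue of neonatal skin, were lower in 4 of 6 (71.9 and 60.5 FPKM), where 50.7% of expressed genes were lower. Lef1 and Shh were higher, and Dlx3 had the highest level of that list (35.4 and 27.1 FPKM). Skeletal muscle markers, which include genes of fibres and of muscle precursors, were higher in 9 of 9 (6420 and 11166 FPKM).

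**Figure D5:**
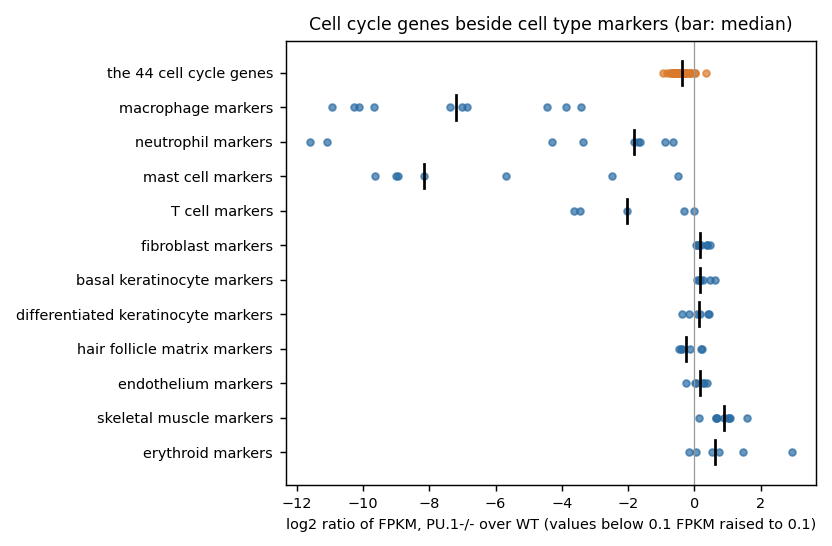
Log2 ratio of FPKM, PU.1-/- over WT, of the 44 cell cycle genes (orange) and of the markers of each cell type (blue), 1 point per gene, with a black bar at the median and values below 0.1 FPKM raised to 0.1. The cell cycle genes lie between −0.94 and 0.36 with a median of −0.38, the medians of fibroblast and basal keratinocyte markers are on the other side of 0 at 0.17 and 0.18, and those of macrophage and mast cell markers are −7.18 and −8.15.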

How the data were processed

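The authors made stranded mRNA libraries of wound tissue, read them as single-end reads, mapped them to mm10 and deposited FPKM values from Cuffnorm, 1 table per library. The submitters' processing notes name TopHat2 2.1.1, Bowtie2 2.2.8, SAMtools 0.1.18 and Cuffdiff 2.2.1; the annotation is not given in the sources used here. Values were compared as deposited, with a floor of 0.1 FPKM. Among low genes, 458 below 2 FPKM had WT values 1.15 times the PU.1-/- values within 0.001 (natural log), taken as equal numbers of reads. Genes in ratios of whole numbers up to 5 (tolerance 0.0005) gave the normalized depth with GENCODE M21 transcript lengths less 200 nt, as the most frequent estimate, which 330 of 1063 genes shared within 0.02 (log10). Reads used the longest RefSeq-linked transcript, which makes intervals too narrow for genes expressed as a shorter one. Lists (7 role groups, 5 related lists, 12 marker lists) are described by counts and medians beside expressed genes. The members and lists were chosen with earlier results of these data known. Text names all 44 genes, Spi1, the 3 highest and 3 lowest of each related list among genes of at least 1 FPKM in either library, the CDK inhibitors and markers; 1 gene that this rule names is not reported here. The functions were tested on simulated libraries. Alternatives changed floor, pseudocount, filter, scaling and fold threshold. Software was Python 3.11.15, scipy 1.17.1 for intervals, numpy 2.4.6, matplotlib 3.10.9 for plots, and pandas 2.3.3.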

Additional observations from a re-analysis of the deposited data

How the results depend on the processing

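With 1 library per genotype no library could be left out, and no paired analysis was possible because each genotype has 1 library. The count of 41 genes below 1 and 3 above held under each floor, pseudocount and scaling, and under a filter of 1 FPKM. No gene of the 44 reached 2-fold under any of these, and 9 were lower at the 1.5-fold threshold. With a pseudocount of 1 FPKM the median log2 ratio was −0.33 for the 44 genes, −0.28 for other replication and for other mitosis genes, and 0.071 for p53 targets. When both libraries were set to equal FPKM sums it was −0.33 for the 44 genes, 0.00042 for the G1/S genes, −0.29 for the replication genes, −0.27 and −0.30 for the other replication and mitosis genes, 0.13 for other cyclins, CDKs and E2F genes, and 0.15 for CDK inhibitors and for p53 targets. Leaving the 100 highest genes out of that sum gave −0.31, 0.024, −0.27, −0.25, −0.28, 0.15, 0.17 and 0.17 in the same order. A filter of 5 FPKM gave 0.014 for the G1/S genes, −0.51 for the centromere genes and 0.22 for p53 targets, over fewer genes. For p53 targets a floor of 1 FPKM gave 0.0045 and a filter of 1 FPKM 0.0090. The sign of the G1/S median therefore depends on the scaling and on the filter. Of 344 values of the 44 genes under these settings, 343 moved by less than counting error, and that of Cdkn1a moved to 0.43.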
